A study of Danio rerio with 6 samples.

Results

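Among the open chromatin of 24-hour zebrafish embryos, 1853 regions held a peak in every library and were wide once all lists were joined. They were found by joining the peaks of all 6 deposited lists wherever peaks shared at least 1 bp, which gave 187225 union regions, and by keeping each region of 1000 bp or more that held a peak in all 6 lists. The regions were thus chosen by their measured width and by the calls in all 6 lists, and neither is a finding. Another 18422 regions were called in all 6 lists but were shorter than 1000 bp, and they are named compact regions below.

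The study sorted nuclei of Tg(fli1a:egfp) embryos at 24 hours post fertilization by fluorescence. In this transgenic line regulatory sequence of fli1a, a gene for an ETS transcription factor of the endothelium, drives GFP, and every embryo used carried the transgene. GFPplus nuclei (3 libraries, endothelial per the labels) were set against GFPminus nuclei of such embryos (3 libraries, non-endothelial per the labels), and the series' design text describes 3 separate isolations as biological replicates. Each library was made from 20000 nuclei. Whether the sorted nuclei were endothelial could not be checked against marker genes, because the lists hold no expression values.

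In ATAC-seq a transposase inserts sequencing adapters where DNA is not wrapped in nucleosomes or packed into closed chromatin, and runs of insertions are called as peaks. Regions that are open in every cell population are best known at promoters of genes that all cells use, where the nucleosomes next to the start site are kept apart. Wide stretches of open chromatin can hold several such nucleosome-free segments with nucleosomes between them, and a peak caller may report them as a single peak or as a row of neighbouring peaks. Genes and promoters were not assigned to the regions here, since no annotation of the lists' genome build, Zv9 (danRer7), was used, and regions are named by position.

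The lists differed in length within fractions as well as between them. The lists held 72695, 73716 and 50396 peaks in GFPplus replicates 1, 2 and 3, against 113476, 110663 and 33437 in GFPminus replicates 1, 2 and 3. No peak of GFPminus replicate 3 was under 160 bp, while the other lists began at 108 to 116 bp. Read depth is unknown, because a peak list holds no reads, so sequence without a peak may still hold reads. GFPplus replicate 3 and GFPminus replicate 3 were the libraries with the shortest lists. Differences between fractions and counts of regions separated in covered length are given with and without them where they move. Other values, such as the shared core, counts by fold or rank and the spread of summits, are given with all 6 libraries only.

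The wide regions had a median width of 1138 bp (quartiles 1058 and 1273 bp). Of the 1853, 148 (7.99%) were 1500 bp wide or more, with the longest at 2642 bp. They made up 0.99% of all union regions, 4.25% of the union sequence and 9.14% of the regions called in all 6 lists. The threshold cut through a continuous range of widths, with 7 members at exactly 1000 bp and 7 regions called in all 6 lists that were 1 bp shorter. The fold of a peak is the authors' enrichment at its summit over the caller's background. The fold of a region in a list is the highest among that list's peaks inside it. The strongest peak is the one with the highest −log10 p, so its own fold may be lower. The 7 members had 1.24 peaks and 728 bp covered per list on average, and a median fold of 10.1. The 7 regions just outside had 1.31 peaks, 570.1 bp covered and a median fold of 7.58. Over the 50 bp on either side of the threshold the sets were nearer to each other, with 1.32 peaks, 702 bp and a fold of 8.27 in 411 members and 1.28 peaks, 667 bp and a fold of 8.10 in 459 shorter regions. A further 215 regions of 1000 bp or more lacked a peak in at least 1 list. Of the 144 that lacked it in exactly 1 list, 73 lacked it in GFPminus replicate 3 and 62 in GFPplus replicate 3.

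Few of these regions were wide in every library. Only 16 held a peak of at least 1000 bp in each of the 6 lists, 1128 (60.9%) held such a peak in at least 1 list, and in 725 (39.1%) the width of 1000 bp arose only from joining shorter peaks of different lists. A single peak of 1000 bp or more was present in 622, 300 and 66 members in GFPplus replicates 1 to 3, against 579, 444 and 131 in GFPminus replicates 1 to 3. The sequence called in all 6 lists had a median of 418 bp per region, which was 35.1% of its width. This shared core was a single stretch in 1094 regions (59.0%) and lay in 2 or more separate stretches in 678 (36.6%). In 81 regions no base was called in all 6 lists, so that different libraries covered different stretches of the region.

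The widest member lay on chromosome 1 at 56377612 to 56380253, a region of 2642 bp with 1219 bp called in all 6 lists. Peaks covered 2317, 2041 and 1627 bp of it in GFPplus replicates 1 to 3, against 2201, 2502 and 1808 bp in GFPminus replicates 1 to 3. The GFPplus libraries divided it into 3, 4 and 3 peaks, whereas GFPminus replicates 1 and 2 called a single peak and GFPminus replicate 3 called 2. The groups overlapped in covered length and did not overlap in the number of peaks. The next was on chromosome 18 at 44776293 to 44778693 (2401 bp), with 1381, 1421 and 1209 bp covered in GFPplus replicates 1 to 3 and 1766, 1716 and 1057 bp in GFPminus replicates 1 to 3. Another, on chromosome 25 at 21735076 to 21737365 (2290 bp), had a shared core of only 186 bp. There GFPplus replicates 1 to 3 covered 1032, 701 and 711 bp and GFPminus replicates 1 to 3 covered 1713, 1238 and 351 bp, so that GFPminus replicate 3 was the lowest of all.

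Most wide regions held 1 or 2 peaks per list. A single peak was called in 66.1%, 49.6% and 52.0% of them in GFPplus replicates 1 to 3, against 60.7%, 52.3% and 74.7% in GFPminus replicates 1 to 3. Lists with 3 or more peaks in a region were uncommon, at 2.97% to 6.96% of the members in GFPplus libraries and 1.35% to 6.10% in GFPminus libraries. The mean was 1.496 ± 0.11 peaks per region in GFPplus libraries and 1.41 ± 0.14 in GFPminus libraries (SD, n = 3 each). The difference of 0.081 was smaller than the spread between replicates (exact two-sided permutation p = 0.6, where 3 libraries against 3 cannot give less than 0.1). With the members found anew from 5 libraries, leaving out GFPminus replicate 3 gave 0.0057 and leaving out GFPplus replicate 2 gave 0.042 (exact permutation p of 1 and 0.7). Leaving out GFPplus replicate 1 gave 0.160 and leaving out GFPminus replicate 2 gave 0.162 (exact permutation p of 0.2 and 0.3). Without both libraries numbered 3, an alternative added after the data had been seen, it turned to −0.015 (exact permutation p = 1). Compact regions held 1.07 ± 0.016 peaks in GFPplus libraries and 1.05 ± 0.030 in GFPminus libraries (SD, n = 3 each).

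**Figure D1:**
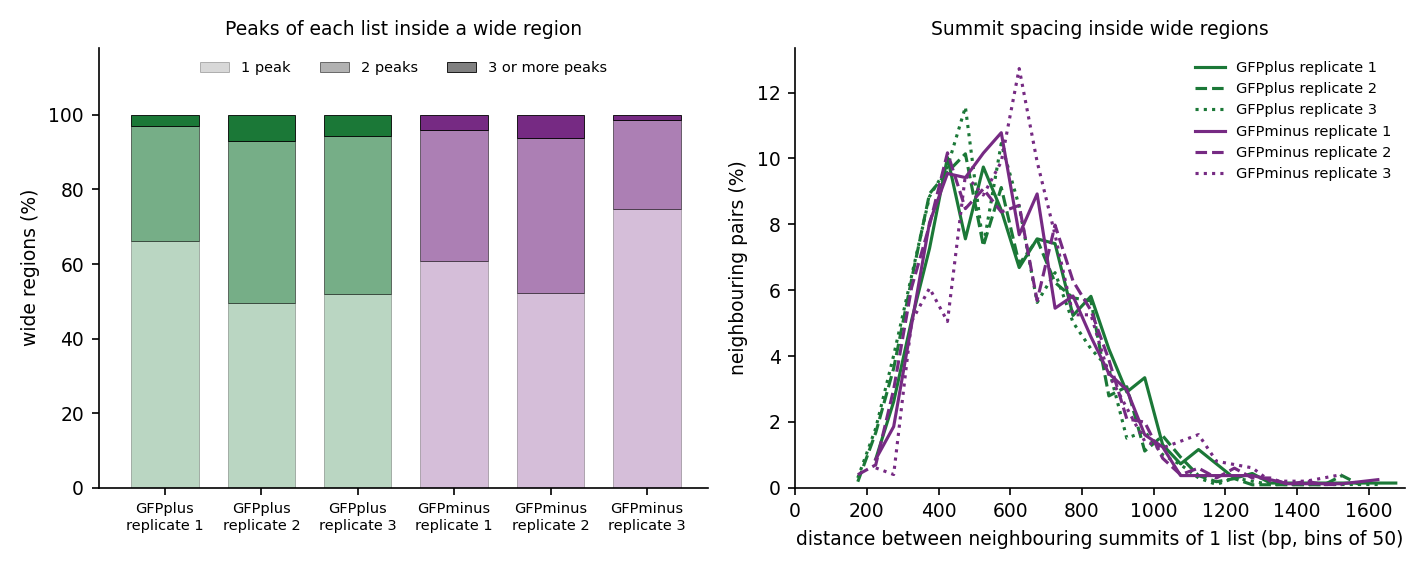
Left, share of the 1853 wide regions (%) in which each list called 1, 2, or 3 or more peaks, with GFPplus libraries in green and GFPminus libraries in purple. Right, share (%) of neighbouring peak pairs of a list by the distance between their summits (bp, bins of 50). A single peak was the most common call in every library, and GFPminus replicate 3 had the highest share of single peaks (74.7%).

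The division into several peaks was rarely shared by all libraries. Where 2 libraries both divided a region, their gaps overlapped in most cases. In 270 regions (14.6%) every list had a single peak, in 55 (2.97%) every list had 2 or more, and in 1528 (82.5%) the lists differed. A base without a peak in any list ends a region, so each gap inside a member was bridged by peaks of other lists. The counts of 55 and 1528 thus depend partly on the rule. Regions divided in no list had a median width of 1079 bp, and those divided in all 6 lists of 1521 bp. For 2 libraries that both divided a region, their gaps overlapped in 81.4% ± 3.87 of such regions over the 9 pairs of libraries of different fractions (SD), and in 80.2% ± 3.16 over the 6 pairs of the same fraction (SD). The lowest pair, GFPplus replicate 1 with GFPminus replicate 2, still shared a gap in 289 of 387 regions (74.7%). The overlap expected by chance was not computed, and both values are descriptions.

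Gaps between neighbouring peaks of a list were narrow, with a median of 152, 163 and 181 bp in GFPplus replicates 1 to 3, against 160, 156 and 204 bp in GFPminus replicates 1 to 3. The libraries with the shortest lists had the widest gaps in either fraction. The narrowest gap was between 87 and 102 bp in every library. A gap was kept inside a member only where peaks of other lists bridged it, so gap widths depend partly on the rule. The part of the peak caller in the narrowest gaps was not tested. Summits of neighbouring peaks lay a median of 592, 561 and 547 bp apart in GFPplus replicates 1 to 3 and 575, 572 and 616 bp apart in GFPminus replicates 1 to 3. Distances ranged widely, with quartiles of 436 and 734 bp over the 5063 neighbouring pairs of all libraries.

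The 3 members with most peaks illustrate how the division varied. On chromosome 1 at 35068307 to 35070034 the lists called 2, 2 and 3 peaks in GFPplus replicates 1 to 3 and 5, 3 and 4 in GFPminus replicates 1 to 3. On chromosome 22 at 5745184 to 5746863 they called 2, 4 and 4 in GFPplus replicates 1 to 3 and 4, 3 and 2 in GFPminus replicates 1 to 3. On chromosome 14 at 43001528 to 43003065 they called 3, 3 and 3 in GFPplus replicates 1 to 3 and 3, 4 and 2 in GFPminus replicates 1 to 3. The fractions overlapped in peak number in the last 2 of these regions, while in the first the highest GFPplus value equalled the lowest GFPminus value. Across all members, each GFPplus library had more peaks than each GFPminus library in 34 regions (1.83%), and the opposite held in 7 (0.378%). Over all 20275 regions called in all 6 lists the same calls were made in 0.281% and 0.074%. Compact regions seldom hold a second peak, which keeps that background low.

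Peaks covered more than 50% of the median wide region in every library. With libraries not paired by number, the difference between fractions lay within the spread between replicates. Paired by number, it was −13.1, −84.3 and −34.3 bp in pairs 1 to 3, though the labels do not say that numbers mark pairs. The mean covered length per region was 945, 839 and 630 bp in GFPplus replicates 1 to 3, against 958, 923 and 665 bp in GFPminus replicates 1 to 3. The means were 804 ± 159.8 bp in GFPplus libraries and 848 ± 160.0 bp in GFPminus libraries (SD, n = 3 each, difference −43.9 bp, exact two-sided permutation p = 0.6). The peaks summed here also set the union width by which the regions were chosen. The difference and its p are thus not independent of the rule, though the rule treats both fractions alike. The groups overlapped, and both fractions held a library with low coverage, which was the library with the shortest list of that fraction. The difference turned to 33.3 bp without GFPplus replicate 3 and to 19.1 bp without GFPminus replicate 1. It was −134 bp without GFPplus replicate 1, −133 bp without GFPminus replicate 3 and −2.64 bp without GFPminus replicate 2. Its exact permutation p lay between 0.4 and 0.9 in these 5 cases. With the best 33437 peaks of each list, and the members found anew, the difference was −34.7 bp (exact permutation p = 0.8).

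Relative to compact regions of the same library, the wide regions were covered to a similar degree in both fractions. The mean covered length of wide regions over that of compact regions was 2.09, 2.08 and 1.87 in GFPplus replicates 1 to 3 and 2.12, 2.09 and 1.88 in GFPminus replicates 1 to 3. On the log2 scale the means were 1.01 ± 0.090 in GFPplus libraries and 1.02 ± 0.094 in GFPminus libraries (SD, n = 3 each, difference −0.0093, exact two-sided permutation p = 0.6). The difference turned to 0.069 without GFPplus replicate 3, 0.035 without GFPminus replicate 1 and 0.016 without GFPminus replicate 2 (exact permutation p = 0.5, 0.5 and 1). It was −0.061 without GFPplus replicate 1, −0.035 without GFPplus replicate 2 and −0.091 without GFPminus replicate 3 (exact permutation p = 0.5, 0.6 and 0.3). The libraries with the shortest lists had the lowest ratios. Wide and compact regions were told apart by union width, to which these libraries added fewer wide peaks. A single peak of 1000 bp or more was present in 66 members in GFPplus replicate 3 and 131 in GFPminus replicate 3, against 300 to 622 in the other lists. The ratios and their difference thus depend partly on the rule. With the best 33437 peaks of each list, the members found anew numbered 1472 and the difference was −0.030 (exact permutation p = 0.6). What list length adds to the ratio of each library was not tested.

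Seen from the middle of the regions, coverage formed a plateau that fell off steeply towards the edges. By the rule each member reached at least 500 bp to either side of its middle, so this shape depends on the width threshold. At the middle, a peak was present in 85.2%, 78.5% and 61.8% of the wide regions in GFPplus replicates 1 to 3, against 86.7%, 83.5% and 69.7% in GFPminus replicates 1 to 3. At 300 bp to the left of the middle the shares were 83.7%, 76.4% and 59.1% in GFPplus replicates 1 to 3 and 85.1%, 82.6% and 63.5% in GFPminus replicates 1 to 3. At 500 bp to the left they were 60.8%, 49.8% and 31.3% in GFPplus replicates 1 to 3 and 60.3%, 59.6% and 29.2% in GFPminus replicates 1 to 3. At this distance the libraries with the shortest lists lay lowest in both fractions. Less than 50% of the region was covered in 44.1% of the members in GFPplus replicate 3 and in 38.9% in GFPminus replicate 3, against 3.99% to 14.2% in the other 4 libraries.

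**Figure D2:**
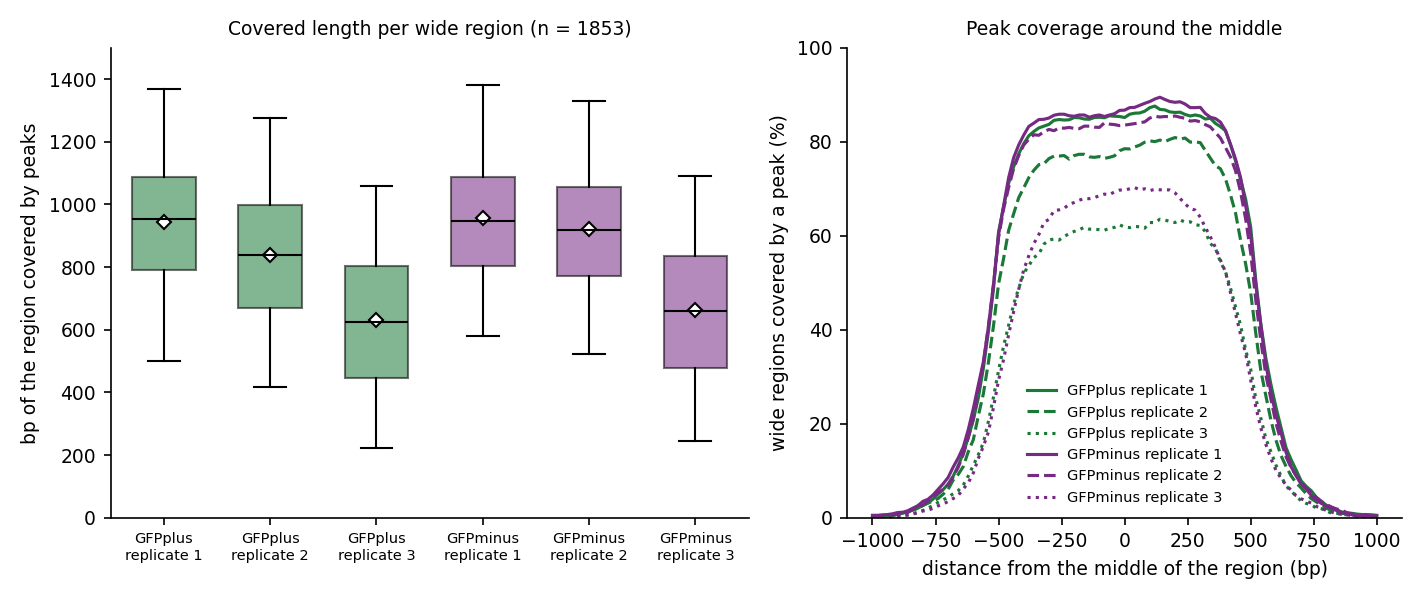
Left, bp of each wide region covered by peaks of each library (n = 1853 regions; box, quartiles; line, median; whiskers, 5th to 95th percentile; diamond, mean), with GFPplus libraries in green and GFPminus libraries in purple. Right, share of wide regions (%) with a peak at each distance from the region's middle (bp). GFPplus replicate 3 and GFPminus replicate 3 lie lowest, with means of 630 and 665 bp.

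The fractions separated completely in covered length in a minority of the wide regions. Each GFPplus library covered more than each GFPminus library in 47 regions (2.54%), against 4.16% of all 20275 regions called in all 6 lists. Each GFPminus library covered more than each GFPplus library in 108 regions (5.83%), against 7.67% of all such regions. In both directions the share among wide regions was below that background. The fold separated in 106 regions in favour of GFPplus (5.72%, against 7.52% of all regions called in all 6 lists). In favour of GFPminus it separated in 161 (8.69%, against 10.6%). With a library left out and the members found anew, fewer libraries have to separate, and the share over all regions called in every remaining list moved as well. Without GFPplus replicate 3 the counts were 227 and 140 (12.2% and 7.52%, against 11.9% and 11.6% of all regions). Without GFPminus replicate 3 they were 53 and 443 (2.94% and 24.5%, against 7.83% and 20.6%), and without both they were 240 and 483 (13.3% and 26.7%, against 16.1% and 26.1%). Without GFPplus replicate 1 they were 29 and 244 (2.03% and 17.1%, against 4.99% and 18.3%), and without GFPplus replicate 2 they were 57 and 169 (3.37% and 10%, against 7.44% and 13.4%). Without GFPminus replicate 1 they were 105 and 90 (6.85% and 5.87%, against 9.21% and 9.39%), and without GFPminus replicate 2 they were 72 and 99 (4.59% and 6.32%, against 8.24% and 9.96%). The share among wide regions was above that of all regions in favour of GFPplus without GFPplus replicate 3, and in favour of GFPminus without GFPminus replicate 3 and without both. When covered length was divided by the mean over members of each library, a scaling added after the data had been seen, the counts were 142 (7.66%) and 158 (8.53%), against 7.76% and 7.89% of all regions called in all 6 lists. Divided by the mean over all regions called in all 6 lists, they were 133 (7.18%, against 8.67%) and 143 (7.72%, against 8.22%). Under either scaling the counts of the fractions were nearer to each other than the unscaled ones.

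**Figure D3:**
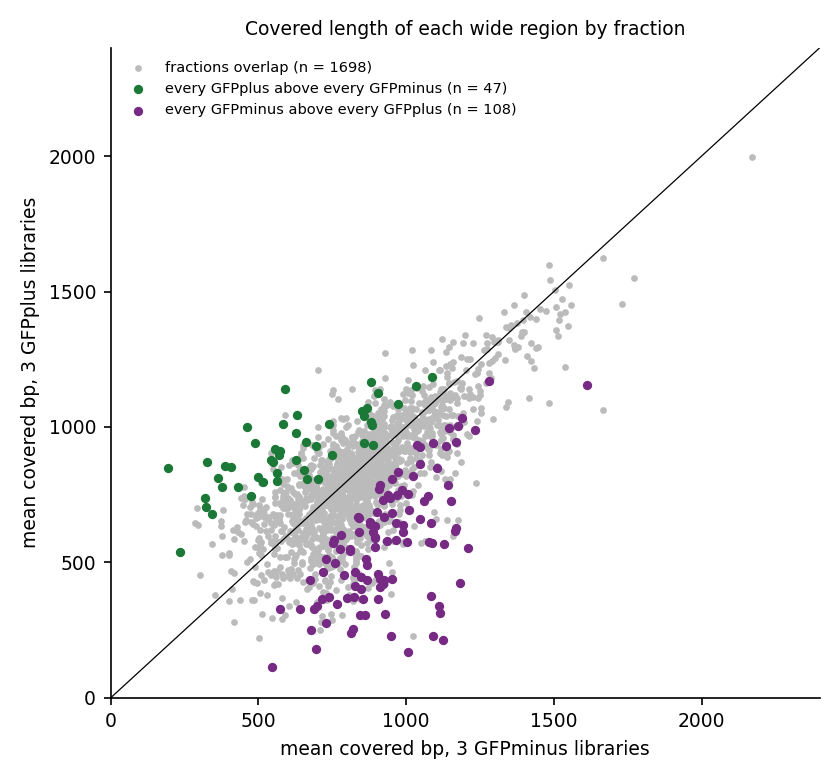
Mean covered length (bp) of each of the 1853 wide regions over the 3 GFPplus libraries (vertical axis) and the 3 GFPminus libraries (horizontal axis), with the diagonal of equal values. Green points (n = 47) are regions in which each GFPplus library lay above each GFPminus library, and purple points (n = 108) the opposite.

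In the regions with the largest ratio in favour of GFPminus, short peaks in the GFPplus libraries were enough to meet the rule. On chromosome 9 at 6729032 to 6730218, peaks covered 115, 272 and 119 bp in GFPplus replicates 1 to 3 and 1088, 1036 and 893 bp in GFPminus replicates 1 to 3. The fold was 3.42, 4.05 and 3.83 in these GFPplus libraries and 7.03, 6.38 and 5.02 in these GFPminus libraries. On chromosome 23 at 23731041 to 23732272, peaks covered 207, 282 and 148 bp in GFPplus replicates 1 to 3 and 1232, 1121 and 1021 bp in GFPminus replicates 1 to 3. On chromosome 2 at 33085547 to 33086861, the values were 399, 133 and 155 bp in GFPplus replicates 1 to 3 and 1067, 1193 and 1012 bp in GFPminus replicates 1 to 3. In each of these regions the 3 GFPminus libraries lay close together and far above the GFPplus libraries. The regions were picked for this ratio among those whose fractions separated, so the difference is a description.

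In the other direction the largest ratio was smaller, at 4.36 for the first region. On chromosome 3 at 5805995 to 5807163, peaks covered 1087, 813 and 648 bp in GFPplus replicates 1 to 3 and 246, 150 and 189 bp in GFPminus replicates 1 to 3. On chromosome 24 at 29341718 to 29342773, they covered 1048, 782 and 778 bp in GFPplus replicates 1 to 3 and 227, 496 and 260 bp in GFPminus replicates 1 to 3. On chromosome 12 at 44762789 to 44763846, they covered 951, 582 and 682 bp in GFPplus replicates 1 to 3 and 451, 299 and 206 bp in GFPminus replicates 1 to 3. These 3 regions were picked among those whose fractions separated, so in each the lowest GFPplus library lay above the highest GFPminus library by choice. Sequence covered by at least 1 GFPplus library and no GFPminus library reached 200 bp in 287 members (15.5%), against 5.63% of all regions called in all 6 lists, and the opposite in 449 (24.2%), against 9.38%. Wider regions leave more room for such sequence, so these shares depend on width. GFPminus replicates 1 and 2 also had the longest lists, and the part of list length in the counts of 287 and 449 was not tested.

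Wide regions were strong in every library, though not the strongest. The members had a median fold of 8.26, 7.71 and 8.04 in GFPplus replicates 1 to 3, against 8.57, 8.52 and 7.42 in GFPminus replicates 1 to 3. Compact regions had a median fold of 7.36, 6.69 and 6.84 in GFPplus replicates 1 to 3 and of 7.70, 7.57 and 6.17 in GFPminus replicates 1 to 3. Within each list, wide regions thus lay above compact ones by this measure. By −log10 p, 40.4% to 55.4% of the wide regions had their strongest peak in the upper 10% of the list in GFPplus libraries, and 31.5% to 66.2% in GFPminus libraries. For compact regions these shares were 20.8% to 31.3% in GFPplus libraries and 14.5% to 45.6% in GFPminus libraries. The upper 10% holds more peaks in a longer list, so differences between libraries in these shares depend partly on list length. For both kinds of region the share was highest in GFPminus replicate 1, the longest list, and lowest in GFPminus replicate 3, the shortest. Both width and calls in all 6 lists were used to choose the regions, so no test was run, and a part of width in these values was not tested. The highest fold of any wide region was 23.4 in GFPplus libraries and 22.0 in GFPminus libraries, against 53.2 to 54.7 for the highest peak of each list.

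Beyond 1000 bp, width and fold showed little relation. Spearman's rho between width and fold lay between −0.064 and 0.0013 in the 6 libraries (across 1853 regions, which are not independent replicates). In the narrowest 1322 members (71.3%) the median fold was 8.05 in GFPplus and 8.27 in GFPminus libraries (mean over 3 libraries), and in the 148 members of 1500 bp or more it was 7.97 in GFPplus and 7.73 in GFPminus libraries. The mean number of peaks was 1.42 in GFPplus and 1.35 in GFPminus libraries in these narrowest members, and 1.95 in GFPplus and 1.76 in GFPminus libraries at 1500 bp or more. By −log10 p, on the other hand, the median percentile of the strongest peak within its list was 88.4 in GFPplus and 88.9 in GFPminus libraries in the narrowest members, and 92.9 in GFPplus and 92.1 in GFPminus libraries at 1500 bp or more. Spearman's rho between covered length and fold lay between 0.106 and 0.372 across the members of each library. The widest members thus held more peaks, with strongest peaks that stood higher by −log10 p. Their fold, which can come from another peak of the region, was not higher.

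The strongest members, ranked by the lowest −log10 p over the 6 lists, stood among the leading peaks of every list. On chromosome 25 at 6742830 to 6744563 the fold was 18.8, 19.1 and 19.0 in GFPplus replicates 1 to 3 and 18.9, 18.9 and 17.1 in GFPminus replicates 1 to 3. The strongest peak of the region ranked between 5 and 8 in each list by −log10 p. This region was also 1734 bp wide, and its 6 summits lay within 38 bp. On chromosome 19 at 24973583 to 24974602 the fold was 13.3, 13.2 and 15.9 in GFPplus replicates 1 to 3 and 16.7, 15.6 and 17.8 in GFPminus replicates 1 to 3, with a single peak in every list. On the same chromosome at 47057762 to 47058837 it was 14.8, 15.8 and 17.2 in GFPplus replicates 1 to 3 and 14.6, 16.9 and 15.4 in GFPminus replicates 1 to 3. The fractions overlapped in fold in all 3 regions. The remaining 2 regions were on chromosome 8 at 451555 to 452648, where the 6 summits lay within 9 bp, and on chromosome 3 at 5825429 to 5826688. Their fold ranged over the 6 libraries between 12.6 and 16.4 and between 13.8 and 15.005.

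The members with the largest ratio of fold between fractions show how far strength could differ at a region open in all libraries. On chromosome 25 at 1882977 to 1884380 the fold was 5.78, 4.63 and 4.35 in GFPplus replicates 1 to 3 and 12.9, 12.4 and 11.0 in GFPminus replicates 1 to 3. On chromosome 4 at 11884720 to 11885738 it was 4.69, 3.57 and 3.61 in GFPplus replicates 1 to 3 and 11.4, 10.2 and 7.48 in GFPminus replicates 1 to 3. On chromosome 7 at 29917386 to 29918401 it was 7.08, 7.31 and 6.27 in GFPplus replicates 1 to 3 and 17.2, 15.7 and 11.0 in GFPminus replicates 1 to 3. In all 3 regions GFPminus replicate 3 was the lowest GFPminus library. It lay above every GFPplus library by choice, since the regions were picked among those whose fractions separated in fold.

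In the other direction, the fold on chromosome 3 at 2139272 to 2141076 was 11.8, 10.1 and 12.7 in GFPplus replicates 1 to 3 and 4.83, 6.60 and 4.21 in GFPminus replicates 1 to 3. On chromosome 24 at 32071887 to 32072926 it was 9.76, 7.81 and 8.26 in GFPplus replicates 1 to 3 and 5.07, 3.54 and 4.18 in GFPminus replicates 1 to 3. On chromosome 5 at 74810927 to 74812119 it was 15.002, 9.66 and 11.6 in GFPplus replicates 1 to 3 and 6.76, 6.12 and 6.13 in GFPminus replicates 1 to 3, with 1 peak in each GFPplus list and 2 in each GFPminus list. These regions were chosen for the ratio, and no test was run on fold values between libraries. Counted over all members by the rank of the strongest peak among the best 33437 peaks of each list, the length of the shortest list, each GFPplus library ranked the region higher than each GFPminus library in 190 regions (10.3%), against 10.2% of all regions called in all 6 lists. The opposite held in 199 regions (10.7%), against 14.1% of all such regions. The share in favour of GFPplus was thus at the background, and the share in favour of GFPminus below it. Of the 47 regions covered more in GFPplus, 16 (34.0%) also ranked higher there, which was 8.42% of the 190. Of the 108 covered more in GFPminus, 47 (43.5%) also ranked higher there, which was 23.6% of the 199, and 4 ranked higher in GFPplus. Covered length and rank come from the same peaks. The share of such joint calls over all regions is not given here, so they are a description of the members.

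The position of the strongest summit, which the rule did not use, differed little between most libraries, with GFPminus replicate 3 standing apart. The median distance between the strongest summits of 2 libraries was 32 to 41 bp in the 6 pairs of a GFPplus library with GFPminus replicate 1 or 2, and 69 to 70 bp in the 3 pairs of a GFPplus library with GFPminus replicate 3. Within GFPplus it was 33 to 40 bp. Within GFPminus it was 27 bp for replicates 1 and 2 and 68 to 69 bp for the pairs with replicate 3. On average it was 47.3 ± 17.0 bp over the 9 pairs between fractions and 45.2 ± 18.5 bp over the 6 pairs within fractions (SD), a difference of 2.17 bp (exact two-sided permutation p = 0.3). Without GFPplus replicate 1, 2 or 3 the difference turned to −3.58, −1.92 and −4.33 bp (exact permutation p = 1 in each case). Without GFPminus replicate 1 or 2 it was 8.63 and 10.3 bp (exact permutation p = 0.3 and 0.1, the latter the smallest possible). Without GFPminus replicate 3 it was 1.83 bp (exact permutation p = 0.6). With all 6 libraries, pairs with GFPminus replicate 3 make up an equal share of both kinds of pair. Without a GFPplus library that share is larger within fractions, and without GFPminus replicate 1 or 2 it is larger between fractions. These shifts thus depend partly on which pairs are counted. With all 6 libraries, the distance between fractions did not exceed that within fractions beyond the spread between libraries.

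In single regions the strongest summit could lie far from that of another library. All 6 summits fell within 100 bp in 656 wide regions (35.4%), against 42.8% of all regions called in all 6 lists. They were spread over more than 500 bp in 447 wide regions (24.1%), and in 386 compact regions (2.095%), which leave less room. The 3 GFPplus summits lay at least 100 bp to the same side of the 3 GFPminus summits in 35 wide regions (1.89%), against 0.592% of all regions called in all 6 lists. Wider regions allow larger distances, so these shares depend on width. The median distance of summits from the middle of the region was 45.3% of the way to the edge in wide regions and 28.1% in compact regions, over all 6 libraries. Less than 50% of the way out lay 56.2% of the summits of wide regions and 80.6% of those of compact regions.

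Wide regions were spread over all 25 numbered chromosomes, which held 1795 of them, a density of 1.32 per Mb (chromosome length taken as the end of its last peak). Density ranged between 0.628 per Mb on chromosome 4 and 1.79 per Mb on chromosome 23, with a median of 1.37. It followed the density of all regions called in all 6 lists, with a Spearman's rho of 0.725 across the 25 chromosomes, given as a description, since each wide region is also such a region. The share of those regions that were wide was more even, at 9.08% over all numbered chromosomes (95% Wilson interval 8.69% to 9.49%). Chromosome 23 had the highest share, 83 of 783 regions (10.6%, 8.63% to 13.0%), and chromosome 9 the lowest, 53 of 783 (6.77%, 5.21% to 8.75%). The order depended on the processing: under the alternatives the highest share was on chromosome 1, 8, 14, 19, 23 or 24 and the lowest on chromosome 4, 9, 15 or 25. For 24 of the 25 chromosomes the interval held the overall share, and chromosome 9 lay below it. Neighbouring chromosomes in this order had overlapping intervals, and all intervals cover counting error only. A further 58 members lay on 52 unplaced sequences, where 11.4% of 511 regions called in all 6 lists were wide (8.88% to 14.4%).

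**Figure D4:**
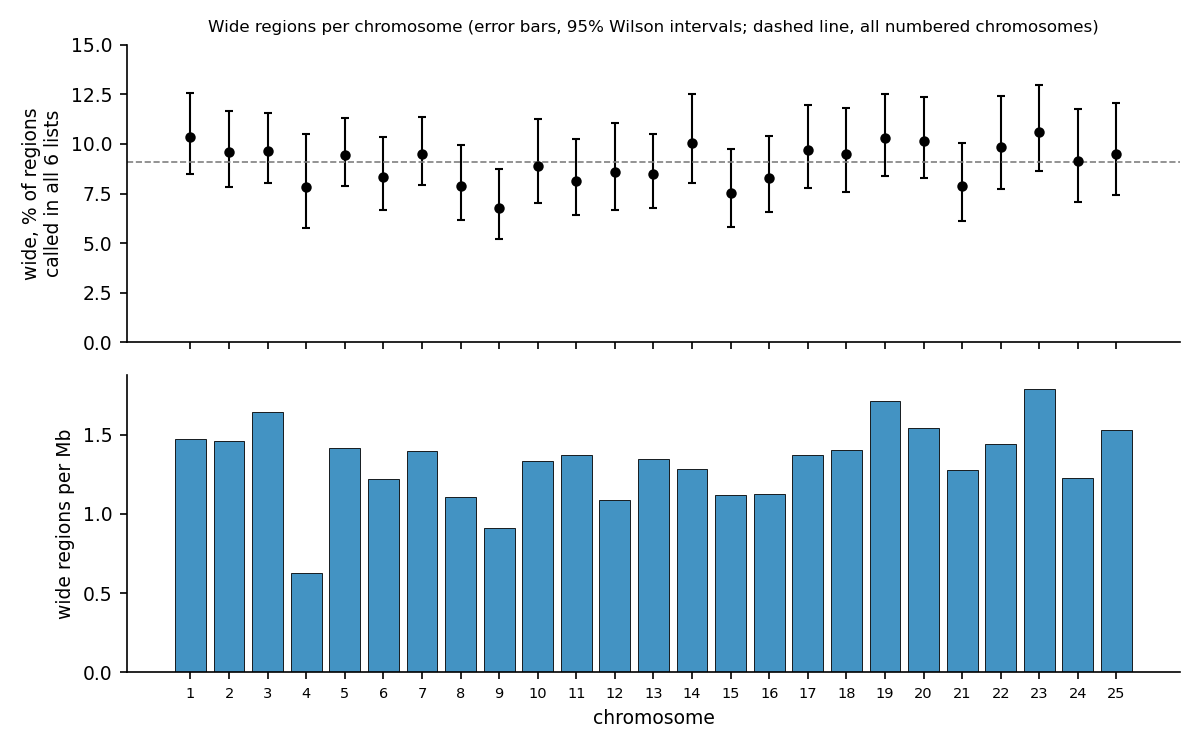
Top, wide regions as a share (%) of the regions called in all 6 lists on each numbered chromosome, with 95% Wilson intervals and, dashed, the share of 9.08% over all 25. Bottom, wide regions per Mb. Chromosome 9 has the lowest share (6.77%), and chromosome 4 the lowest density (0.628 per Mb).

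The long arm of chromosome 4 is known as gene-poor heterochromatin in zebrafish. The density of wide regions per Mb was low over the sequence beyond 30 Mb as a whole, though not at its end. Beyond 30 Mb it held 12 members, or 0.374 per Mb. They were unevenly placed, with 1, 1, 5 and 5 members in successive stretches of 10 Mb. The last stretch is short, since it ends with the last peak at 62.1 Mb. Its density of members was above that of any whole numbered chromosome. The stretches before 30 Mb held 13, 10 and 4 members. Regions called in all 6 lists of any width numbered 179, 160 and 72 in the stretches before 30 Mb and 6, 5, 42 and 35 in those beyond. Of the 88 beyond 30 Mb, 13.6% were wide (7.98% to 22.3%), and of all 499 on chromosome 4, 7.82% (5.77% to 10.5%). Both intervals held the overall share.

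Some windows at chromosome ends held many wide regions. The window of 1 Mb with most members was the first of chromosome 22, where 13 of 52 regions called in all 6 lists were wide. These 13 lay between 52917 and 862213, with a median width of 1127 bp, and covered 849 bp on average in GFPplus libraries and 844 bp in GFPminus libraries. In none of them did the fractions separate in covered length. Windows with 8 members were found on chromosome 17 at 53000001 to 54000000, chromosome 18 at 1 to 1000000, chromosome 19 at 44000001 to 45000000, chromosome 3 at 15000001 to 16000000 and chromosome 5 at 34000001 to 35000000. Of the 1369 windows, 472 held no member and 414 held 1. Of the 10 windows with at least 7 members, 5 were the first or last of their chromosome. These windows were picked for their count, and the share of all windows that lie at an end is not given here. Within 1 Mb of a chromosome end lay 165 of the 1795 members (9.19%) and 1286 of 17969 compact regions (7.16%). The first 10% of chromosome length held 12.6% of the members and 12.8% of the compact regions. The last 10% held 14.6% of the members and 13.0% of the compact regions.

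Wide regions lay about as far from each other as compact regions lay from them. The nearest other wide region was a median of 182 kb away, and the nearest wide region of a compact one 202 kb. Another wide region lay within 10 kb of 54 members (3.01%, Wilson interval 2.31% to 3.90%), and of 610 compact regions (3.39%, 3.14% to 3.67%). Within 100 kb the shares were 34.5% of the members and 32.0% of the compact regions. Compact regions lay nearer, at a median of 18.8 kb from a wide region and 15.9 kb from another compact one. A region called in all 3 GFPplus lists and in no GFPminus list lay within 10 kb of 63 wide regions (3.51%, 2.75% to 4.47%), and of 4.56% of the compact ones (4.26% to 4.87%). A region called in all 3 GFPminus lists and in no GFPplus list lay within 10 kb of 28 wide regions (1.56%, 1.08% to 2.25%), and of 2.77% of the compact ones (2.54% to 3.02%). A wide region takes up sequence of its own, so that distances between middles have a larger minimum for wide regions. Regions are not independent, and the intervals cover counting error only.

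**Figure D5:**
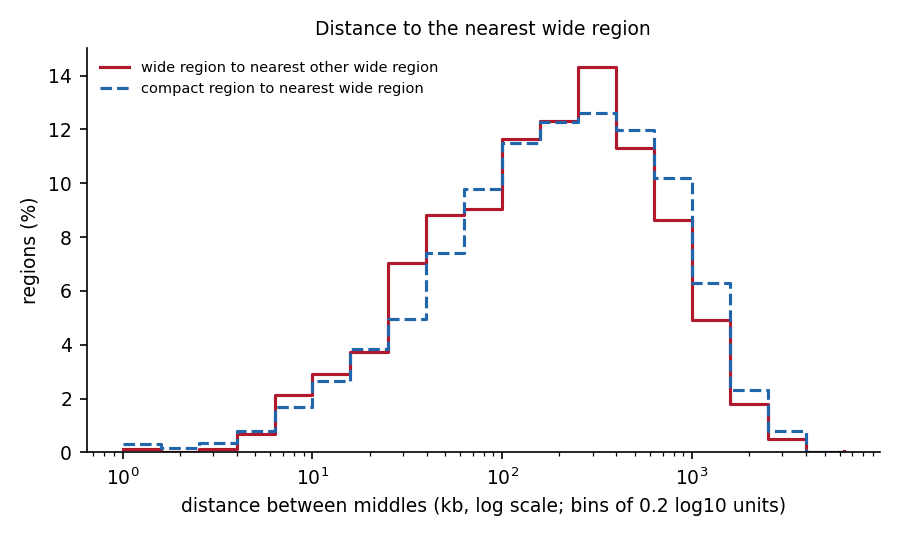
Share (%) of wide regions by the distance to the nearest other wide region (red, solid) and of compact regions by the distance to the nearest wide region (blue, dashed), in kb on a log axis. The curves lie close together, with medians of 182 and 202 kb.

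The closest pair of wide regions lay on chromosome 4 at 61295821 to 61297081 and 61297227 to 61298332, with 145 bp between them in which no list had a peak. The fold in the first was 2.67, 2.81 and 4.34 in GFPplus replicates 1 to 3 and 2.75, 2.53 and 3.13 in GFPminus replicates 1 to 3, and in the second 3.42, 3.13 and 3.16 in GFPplus replicates 1 to 3 and 3.69, 3.27 and 3.30 in GFPminus replicates 1 to 3. Both were low in every library. The next pair, on chromosome 14 at 40342091 to 40343339 and 40345715 to 40346906, was separated by 2375 bp, and the third, on chromosome 20 at 46804771 to 46805845 and 46810174 to 46811299, by 4328 bp. On chromosome 20 the fold of the second region of the pair was 9.93, 8.25 and 9.67 in GFPplus replicates 1 to 3 and 11.0, 10.5 and 6.29 in GFPminus replicates 1 to 3, with GFPminus replicate 3 below the other libraries.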

How the data were processed

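ATAC-seq peak lists of 6 libraries (3 GFPplus, 3 GFPminus) were used. Tools credited to the submitters' processing notes are Bowtie2 2.1.0, cutadapt 1.3, MACS2 and deepTools, with build Zv9 (danRer7); their settings are not given in the sources available. Per the file headers, the authors' lists are MACS2 peaks on danRer7, a list for each library. Each deposited peak has, besides a summit position, an enrichment fold (a ratio), p and q values as −log10, and a deposited score, which was not used. These are the authors' values, and peaks were ranked and filtered by them within a list. Fold was also compared between lists, without further scaling, in the counts of separated regions and in the ratios between fractions. The strongest members were picked by their lowest −log10 p over the 6 lists. The lowest deposited −log10 q was 1.30 to 1.31 in each list.

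Peaks were joined and counted with Python 3.11.15, numpy 2.4.6 and pandas 2.3.3. Covered length is the sum of a library's peaks inside a region. Library means were compared by exact two-sided permutation over the 10 splits of 3 and 3. Replicate numbers were not used to pair libraries: deviations from the fraction means in covered length correlated at 0.031, 0.089 and 0.172 between same-numbered libraries over the members, and at 0.139, 0.090 and 0.314 over all regions called in all 6 lists, so that not every pair exceeded 0.1 in either set. Named regions were the widest (3), strongest (5), those with most peaks (3), those with the largest separated ratio of covered length or fold in each direction (3 each), closest pairs (3), the 1 Mb windows with most members (the first and the 5 tied after it, where 3 had been planned), and regions next to the 1000 bp threshold, summarised. Members, lists and rules were chosen with earlier results of these data known. Alternatives were other peak thresholds (−log10 q or fold of at least 5), equal list lengths, 50% overlap, widths of 800 and 1200 bp, numbered chromosomes, libraries left out, a replicate block and scaled lengths. Functions were tested on simulated data. Coordinates are 1-based. Genes, sequences and motifs were not analysed here.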

Additional observations from a re-analysis of the deposited data

How the results depend on the processing

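Where a short list has no peak, reads may still be present, and covered length may follow depth, which is unknown. No test could pass 0.05, so a kept direction says little. The number of wide regions (1853) was 4551 with a minimum width of 800 bp and 684 with 1200 bp, by construction of the threshold, 1244 to 1640 under the other peak and overlap rules, and 1795 on numbered chromosomes. Without a library it was 1431 to 1861.

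Leaving out a library gave −134 to 33.3 bp for the difference in covered length, 0.0057 to 0.162 for the difference in peaks per region, −0.091 to 0.069 for the log2 ratio to compact regions and −4.33 to 10.3 bp for the summit difference. Regions covered more in GFPplus then numbered 29 to 227 (2.03% to 12.2%, against 4.99% to 11.9% of all regions). Those covered more in GFPminus numbered 90 to 443 (5.87% to 24.5%, against 9.39% to 20.6%). Fewer libraries then have to separate. The share with a neighbour within 10 kb was 2.32% to 3.33%, and the highest over the lowest share per chromosome (1.57 in the report) 1.51 to 1.79. Without both libraries numbered 3 the difference in peaks turned to −0.015, and 240 and 483 regions separated (13.3% and 26.7%, against 16.1% and 26.1%).

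Regions covered more in GFPplus and in GFPminus (47 and 108) numbered 138 and 291 at 800 bp (3.03% and 6.39% of the members). At 1200 bp they numbered 16 and 34 (2.34% and 4.97%). The shares over all regions called in all 6 lists were 4.16% and 7.67% at either width. Those covered more in GFPminus numbered 66 with a −log10 q of at least 5 (4.64%, against 6.22% of all regions). With a fold of at least 5 they also numbered 66 (5.31%, against 6.11%). Those covered more in GFPplus numbered 142 when scaled to members (7.66%, against 7.76%). Scaled to all regions called in all 6 lists, they numbered 133 (7.18%, against 8.67%). The share within 10 kb was 7.13% at 800 bp, with 4551 members, and 1.66% with a fold of at least 5, with 1244 members. This share depends partly on the number of members, which these settings change. The causes of the other shifts were not tested. No list held peaks with the same start and end, so counting such rows once changed nothing.

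Over all regions called in all 6 lists, every library's deviations correlated best with those of its own number, a hint from the data and not from the design. Over the members GFPminus replicate 1 did not: it correlated at 0.071 with GFPplus replicate 2 and at 0.031 with GFPplus replicate 1. With the replicate block, 217 (11.7%) and 403 (21.7%) members were covered more in GFPplus and in GFPminus in all 3 pairs, against 12.7% and 21.3% of all regions called in all 6 lists. The difference in covered length was −43.9 bp (exact sign-flip permutation p = 0.25, the smallest that 3 pairs allow), with −13.1, −84.3 and −34.3 bp in the pairs. The block gave 0.081 for peaks (exact permutation p = 0.75) and 3 bp for summits (exact permutation p = 0.25, also the smallest possible). For the log2 ratio it gave −0.0093 (exact sign-flip permutation p = 0.25, again the smallest that 3 pairs allow). The pairs had −0.019, −0.0027 and −0.0062.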

Other observations

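A small set of wide regions had low enrichment in every library although their peaks passed in all 6 lists. In 12 members (0.648%) the highest fold was under 5 in each list, ranging between 2.53 and 4.99. They were 1027 to 1444 bp wide, and 3 of them lay on chromosome 4 and 2 on unplaced sequences. Of all 1853 members, 39 lay on chromosome 4 and 58 on unplaced sequences. By −log10 p their strongest peaks lay at a median percentile between 38.0 and 79.3, depending on the library, so part of them ranked high by −log10 p and low by fold. In the second region of the closest pair, on chromosome 4 at 61297227 to 61298332, GFPminus replicate 1 had a fold of 3.69 with a −log10 p of 54.1. Among compact regions 1.51% had a fold under 5 in every list. This set was chosen after the values had been seen.

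At the other end, 231 wide regions (12.5%) had a fold of 10 or more in every list, against 6.37% of compact regions, and 11 (0.594%) had 15 or more, against 0.711% of compact regions. Of the 231, 2 lay on chromosome 4 and 10 on unplaced sequences. None of the 11 lay on either, which says little, since few members of any fold lay there. These sets were also chosen after the values had been seen.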
